A study of Arabidopsis thaliana with 6 samples.

Results

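AT3G45160, AT2G10940, AT4G38080, AT2G22510, AT1G28400, AT5G22580 and DRT100 (AT3G12610) are 7 of the 13355 genes measured by a probe set of a single gene on Affymetrix ATH1-type arrays. They were chosen by the difference between their mean log2 readings on spaceflight and ground arrays, as strong risers outside the expansin, pectate lyase, lipase and kinesin families. Each is represented by 1 probe set, the only one annotated to that gene alone. That difference is therefore given below as a description and carries no test. The samples were shoots of Arabidopsis thaliana seedlings of the Landsberg (LER-0) ecotype, kept in darkness in canister hardware with petri dish fixation units. The 3 arrays of the Spaceflight group and the 3 arrays of the Ground Control group carry the replicate numbers 2, 3 and 4. Both groups share the ecotype, the darkness and the hardware, and no mutant, transgene or added agent is named in the labels. The labels give neither the seedlings' age nor the source of each replicate (dish, batch of plants or RNA), so a p-value below reflects the scatter of these arrays, part of which can be technical.

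A seedling raised in darkness lengthens its hypocotyl mainly by cell expansion. Expanding cells secrete enzymes that loosen the wall, together with structural proteins and polysaccharides that extend it, and transcripts of such proteins are abundant in this tissue. Leucine-rich repeat proteins of the extracellular space form another large class of secreted plant proteins, and many of them bind other proteins or wall polymers. DRT100 is named for DNA damage repair and toleration and encodes a leucine-rich repeat protein. The other 6 genes are protein-coding loci with no symbol and no description in the tables used here. Whether their products are secreted was not checked, because no protein sequence was used here.

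The arrays were first checked for other tissues and for quality. Of 12 root and root-hair markers only the expansin genes EXPA7 and EXPA18 were measured, and both read between 0.96 and 1.89 on the log2 scale, below the array medians of 2.15 to 2.24. None of 11 shoot epidermis and cotyledon markers had a probe set of a single gene (0 measured), so the labelled tissue could be checked only against the root. The 5 measured seed reserve genes, of 15 listed, differed within the groups: their mean reading was 1.96, 1.56 and 4.29 in flight replicates 2, 3 and 4 and 1.69, 7.59 and 7.22 in ground replicates 2, 3 and 4. Hybridization spike-ins averaged 9.42 on ground replicate 4, against 9.86 to 9.95 elsewhere. The 3′ minus 5′ difference of the actin, GAPDH and ubiquitin control probe sets overlapped between the groups, for actin at 1.67 to 2.22 in flight and 1.19 to 1.85 on the ground. In whole shoots, fewer cells of a type and less RNA per cell cannot be told apart.

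The 7 genes stood far outside the range of most genes. Their differences between the flight and ground means ran from 3.21 to 4.63 log2 units with a median of 3.31, while the median over all genes was -0.04 and the 99th percentile was 1.69. They held ranks 1, 2, 3, 6, 7, 8 and 10 by rise. All 7 passed limma's threshold (an adjusted p under 0.05) beside 3.47% of all genes and 4.13% of all probe sets called higher in flight (1.82% of probe sets were lower), and in all 7 every flight array lay above every ground array, as in 12.4% of all genes. Both counts follow from how the genes were chosen. Across the whole array, 23 probe sets rose at least as much as DRT100, and besides these 7 they comprised 3 of another single gene, 1 of several genes and 12 of no named gene.

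**Figure D1:**
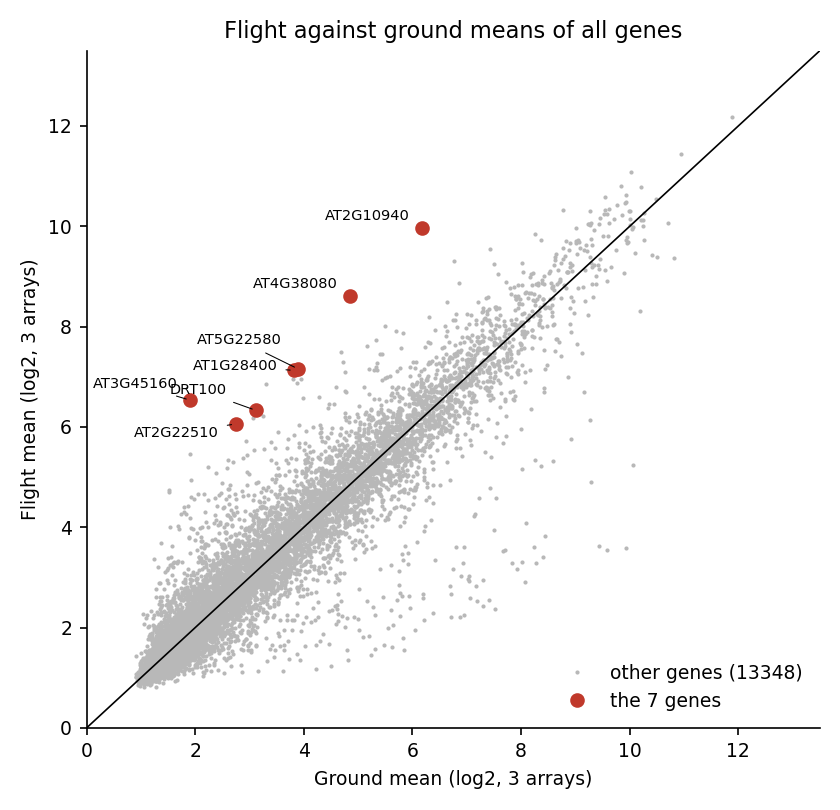
Mean expression over 3 flight arrays (vertical axis, log2) against the mean over 3 ground arrays (horizontal axis, log2) for 13355 genes, with equality as a line. The 7 genes, in red, lie 3.21 to 4.63 log2 units above the line, with AT3G45160 farthest from it.

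AT2G10940 was bright in both groups. It read 10.00, 10.03 and 9.86 in flight replicates 2, 3 and 4, and 6.43, 6.54 and 5.56 in ground replicates 2, 3 and 4. The flight readings lay close together and far above the ground readings, of which replicate 4 was the lowest. The means were 9.96 ± 0.09 in flight and 6.17 ± 0.54 on the ground (SD, n = 3), a difference of 3.79. Its ground readings exceeded those of 86.1% to 92.8% of probe sets on their arrays, so that this difference, a ratio of 13.8, did not rest on readings at the dim end of the scale.

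AT4G38080 read above the array medians in both groups. Its flight readings were 8.62, 8.595 and 8.63 in replicates 2, 3 and 4, against ground readings of 5.53, 3.78 and 5.25. The flight arrays were nearly identical, whereas ground replicate 3 fell well below the other ground arrays. The means were 8.61 ± 0.016 in flight and 4.85 ± 0.94 on the ground (SD, n = 3), a difference of 3.76. Only AT2G10940 and AT4G38080, 2 of the 7, had a ground mean more than 2 log2 units above 2.20, the median of all readings.

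AT3G45160 showed the largest rise of the 13355 genes, from ground readings near or below the array medians. It read 6.77, 6.83 and 6.002 in flight replicates 2, 3 and 4 and 1.61, 2.66 and 1.45 in the ground arrays of the same order. Flight replicate 4 was the low flight array and ground replicate 3 the high ground array, and the groups remained 3.34 log2 units apart at their closest. The ground readings exceeded those of only 28.2% to 58.1% of probe sets. No detection calls were used here, so the difference of 4.63 separates a clear reading from one that cannot be called expressed or not.

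AT2G22510 rose from ground readings that exceeded those of 50.9% to 65.0% of probe sets. Its readings were 6.16, 6.12 and 5.89 in flight replicates 2, 3 and 4 and 3.12, 2.23 and 2.88 on the ground. Flight replicate 4 and ground replicate 3 were the low arrays of their groups. The means were 6.06 ± 0.14 and 2.74 ± 0.46 (SD, n = 3), a difference of 3.31, and the ground spread was the smallest of the 7 genes.

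AT1G28400 read 7.17, 7.24 and 6.97 in flight replicates 2, 3 and 4 and 4.70, 3.82 and 2.95 in ground replicates 2, 3 and 4. The ground arrays spread over 1.76 log2 units, with replicate 2 highest, and the flight arrays over 0.27. The difference of the means was 3.30, from 3.82 ± 0.88 on the ground to 7.13 ± 0.14 in flight (SD, n = 3).

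AT5G22580 was the least even of the 7 on the ground. Its ground readings were 3.48, 5.33 and 2.88 in replicates 2, 3 and 4, against 7.25, 6.89 and 7.33 in flight. Ground replicate 3 stood apart, 1.56 log2 units below the lowest flight array, which was the narrowest gap between groups among the 7 genes. The means were 3.90 ± 1.28 and 7.16 ± 0.23 (SD, n = 3), a difference of 3.26, which was 3.98 without ground replicate 3 and 2.75 without ground replicate 4.

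DRT100, the only named gene of the 7, read 6.20, 6.46 and 6.32 in flight replicates 2, 3 and 4. Its ground readings were 3.44, 3.58 and 2.34, so ground replicate 4 was the low array and the other ground arrays lay close together. The means were 6.33 ± 0.13 and 3.12 ± 0.68 (SD, n = 3), a difference of 3.21.

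**Figure D2:**
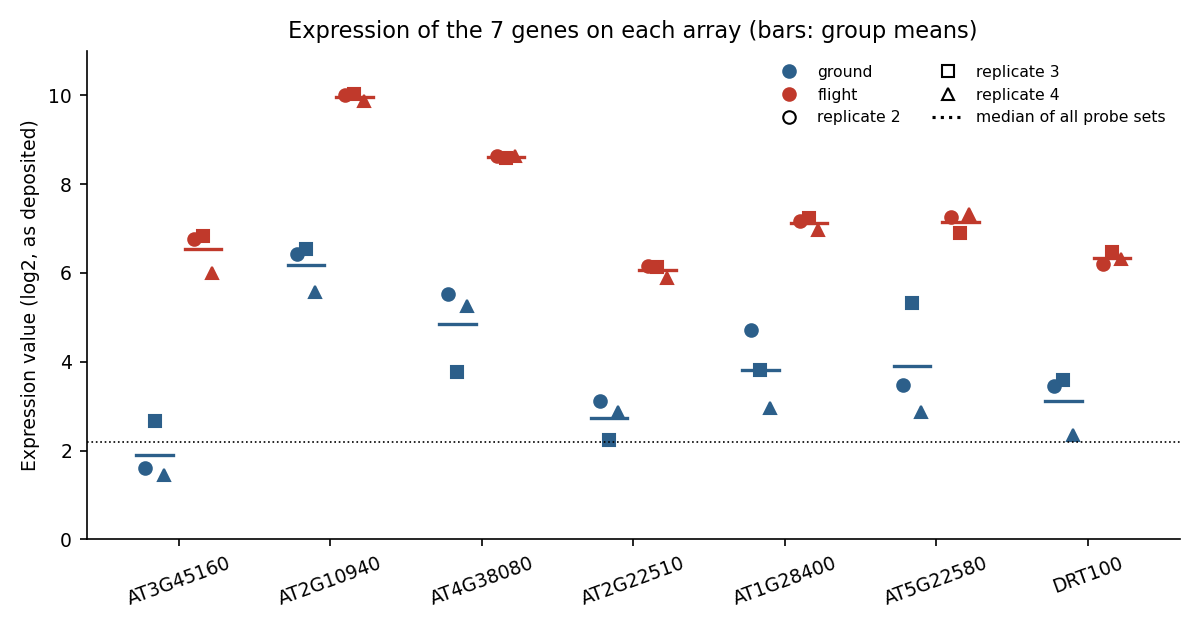
Expression (vertical axis, log2 as deposited) of each of the 7 genes on the 3 ground arrays (blue) and 3 flight arrays (red), with marker shapes for the replicate number, bars for group means and a dotted line at the median of all readings, 2.20. The groups do not overlap for any of the 7, AT5G22580 comes closest through ground replicate 3, and the flight arrays lie closer together than the ground arrays.

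DRT100 was the lowest member by rise, at rank 10. The genes nearest above it outside the 7 were AT5G45670 (difference 3.57), the expansin gene EXPA4 (3.54) and AT3G29970 (3.24). AT3G29970 read 6.59, 5.47 and 2.19 in flight replicates 2, 3 and 4 and 1.37, 1.58 and 1.59 on the ground. Flight replicate 4 was thus near the ground level, a pattern shown by none of the 7. Just below DRT100 lay AT1G04680 (3.18), AT2G23540 (3.18) and AT2G47500 (3.15).

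The ground arrays varied more than the flight arrays in each of the 7 genes. The SD over 3 ground arrays ran from 0.46 in AT2G22510 to 1.28 in AT5G22580 with a median of 0.68, and the SD over 3 flight arrays from 0.016 in AT4G38080 to 0.46 in AT3G45160 with a median of 0.14. The ground SD was 1.43 times the flight SD in AT3G45160, 3.17 times in AT2G22510 and 5.17 to 6.27 times in DRT100, AT5G22580, AT2G10940 and AT1G28400. In AT4G38080 it was 58.7 times the flight SD, which was only 0.016 there. A larger ground SD was common on these arrays, at 64.1% of the other 13348 genes and 76.0% of the 1012 other genes whose flight mean lay in the range of the 7. The 457 other genes called higher in flight had it in 63.5%. The median SD of those 457 was 0.28 on the ground and 0.21 in flight, so the medians of the 7 were higher on the ground and lower in flight. Genes of like rise outside the 7 shared the larger ground SD. It was 1.01 against 0.18 in flight in EXPA4 and 1.03 against 0.11 in AT1G04680. The ground SD was also the larger in AT5G45670, AT2G23540 and AT2G47500, but not in AT3G29970 (0.13 against 2.28). These spreads come from 3 arrays each and were not tested.

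**Figure D3:**
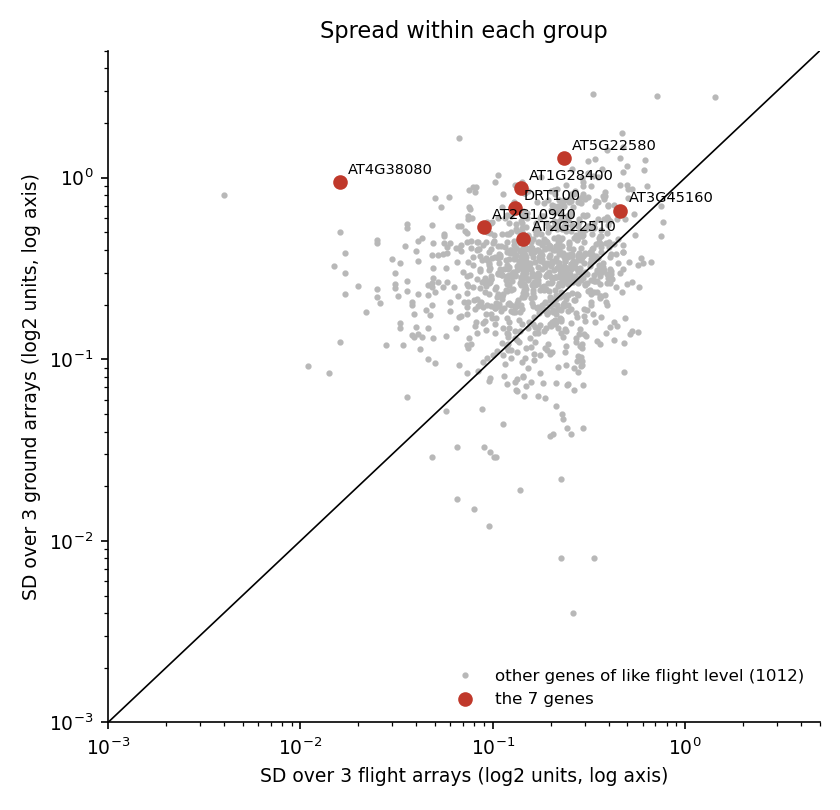
SD over 3 ground arrays (vertical axis) against SD over 3 flight arrays (horizontal axis), both in log2 units on log axes, for the 7 genes (red) and 1012 other genes with a flight mean in the same range (grey), with equality as a line. All 7 genes lie above the line, AT4G38080 farthest to the left at a flight SD of 0.016.

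Ground replicate 4 gave the lowest ground reading in 5 of the 7 genes, AT3G45160, AT2G10940, AT1G28400, AT5G22580 and DRT100. Ground replicate 3 gave it in AT4G38080 and AT2G22510, and ground replicate 2 in none (0 of 7). Among the 457 other risers, ground replicate 4 was lowest in 51.4%, replicate 3 in 30.6% and replicate 2 in 17.9%, and over all other genes the shares were 37.1%, 33.3% and 29.6%. Of all arrays, ground replicate 4 had the largest 3′ minus 5′ difference for GAPDH (0.41) and ubiquitin (2.12), but not for actin (1.85). It was also the array with the lowest spike-ins, though its array median, 2.19, was like those of the other arrays. Each array was therefore also centred on its spike-ins. This takes the same constant from all readings of an array, so it cannot measure how far a low reading of single genes there is technical. The 7 differences then ran from 3.07 to 4.49. Their highest and lowest ranks, 1 and 10, could not change, because the difference of every gene shifts by the same amount. That scaling moved the median of all probe sets to -0.15, from -0.02 as deposited.

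The seed reserve genes and the 7 genes did not order the ground arrays alike, and any link between them was not tested. In ground replicates 2, 3 and 4 the 7 genes deviated from their own means by -1.55, -1.60 and -2.26 on average. In flight replicates 2, 3 and 4 they deviated by 1.86, 1.86 and 1.69, lowest in replicate 4, where the flight seed mean was highest. On the ground, replicate 2 had the lowest seed mean and was the lowest array for 0 of the 7. Ground replicate 3 lay above ground replicate 4 in both means. Ground replicate 2, with low seed readings like those of flight replicates 2 and 3, was the highest ground array for AT4G38080, AT2G22510 and AT1G28400, and ground replicate 3, with high seed readings, for AT3G45160, AT2G10940, AT5G22580 and DRT100. Measured against ground replicate 2 alone, the lowest flight array of each gene was higher by 2.27 (AT1G28400) to 4.39 (AT3G45160) log2 units. Against ground replicate 3 the gaps ran from 1.56 (AT5G22580) to 4.82 (AT4G38080), and against ground replicate 4 from 3.01 (AT2G22510) to 4.55 (AT3G45160). In flight, replicate 4 was the lowest array for 4 of the 7 genes, AT3G45160, AT2G10940, AT2G22510 and AT1G28400. It was also lowest in 33.3% of all other genes and 39.4% of the 457 other risers, and with 7 genes the count was not read further.

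Some readings in the deposited table recur exactly. In ground replicate 4, AT2G22510 and AT5G22580 both read 2.88, the identical deposited number, which 19 probe sets share on that array. On each array 12.02% to 12.9% of probe sets shared their value with another, and among probe sets below the array median 16.2% to 17.5% did. Readings shared by at least 10 probe sets reached 4.04 to 5.34, depending on the array. Every flight reading of the 7 was unique on its array except that of AT1G28400 in replicate 2, which 2 probe sets shared.

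The genes with the array pattern most like the mean of the 7 were found by Pearson correlation over the 6 arrays among 3629 candidates that exceeded the median of all readings by at least 2 log2 units on some array. These were BZIP61 (r = 0.998), EXPA8 (0.997), THE1 (0.996), AT5G23900 (0.996) and AT5G56710 (0.995). BZIP61 encodes a bZIP transcription factor, EXPA8 an expansin, and THE1 the receptor kinase THESEUS1, known for its part in the response of dark-grown hypocotyls to a defective wall. AT5G23900 and AT5G56710 have no symbol or description in the tables used here, so no function shared by the 5 genes is read from this likeness. BZIP61 read 5.98, 6.15 and 5.98 in flight replicates 2, 3 and 4 and 4.39, 4.37 and 4.13 on the ground, a difference of 1.74. THE1 read 5.68, 5.58 and 5.48 in flight and 3.62, 3.45 and 3.36 on the ground, a difference of 2.11. EXPA8 differed by 2.97, AT5G23900 by 1.004 and AT5G56710 by 0.87. The correlation ignores the size of a rise, and 359 of the candidates reached r = 0.9.

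**Figure D4:**
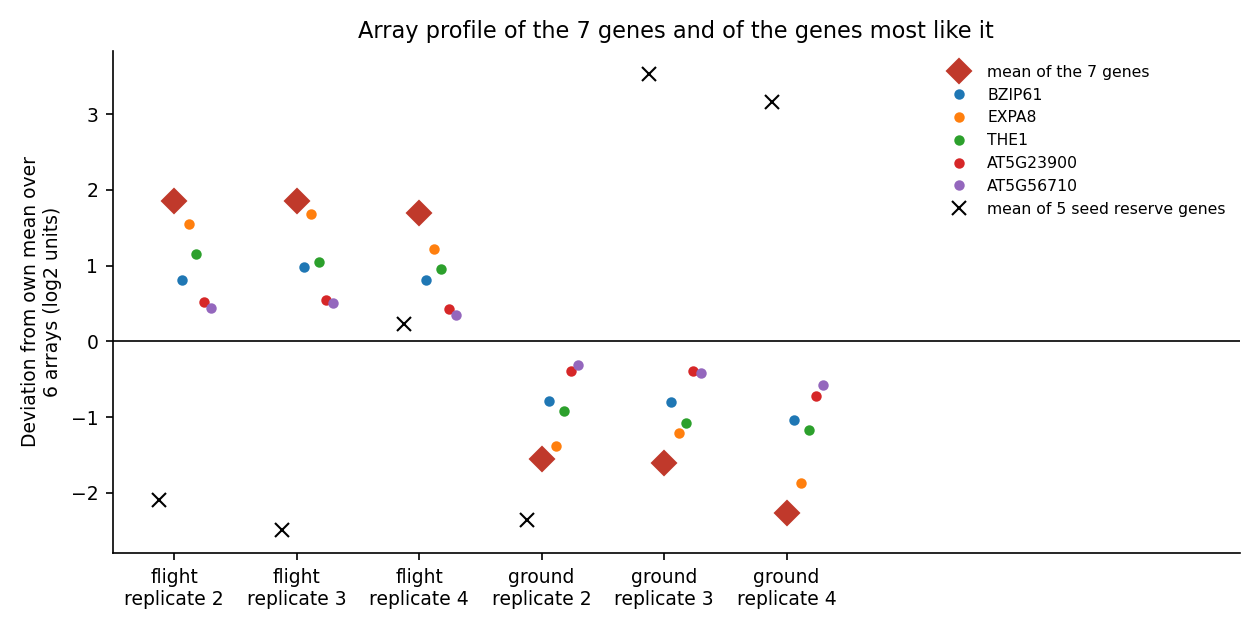
Deviation of each gene from its own mean over 6 arrays (vertical axis, log2 units) by array (horizontal axis), for the mean of the 7 genes (red diamonds), the 5 genes most like it (coloured points) and the mean of 5 seed reserve genes (crosses). The 7 genes stand between 1.69 and 1.86 on the flight arrays and between -2.26 and -1.55 on the ground arrays, while the seed reserve genes are high in ground replicates 3 and 4.

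Single genes of the 7 had different nearest patterns. AT4G38080, with its low ground replicate 3, was most like CSLC04 (r = 0.997), a synthase of the xyloglucan backbone, which read 4.64, 4.64 and 4.68 in flight replicates 2, 3 and 4 and 3.66, 3.28 and 3.68 on the ground. AT5G22580, with its high ground replicate 3, was most like AT4G29020 (r = 0.998), at 9.63, 9.47 and 9.55 in flight and 7.13, 8.43 and 6.74 on the ground. Ground replicate 3 was thus the lowest ground array of the first pair and the highest of the second. AT2G10940 was nearest to AT5G23900, AT3G45160 to AT3G49220, AT2G22510 to AT1G18540, AT1G28400 to AT1G27400 and DRT100 to AT3G13980, with r between 0.996 and 0.998. Of the genes nearest to single members only CSLC04 has a symbol, and no function is given for the others.

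Lists of protein families were then read from the limma fit, with p-values adjusted over all probe sets. Not all are lists of secreted or wall proteins. Of the 5 called genes below, AT2G31670 is on the list of stress-responsive A/B barrel proteins. Family membership comes from general knowledge, since the tables used give no descriptions, and the lists were chosen with earlier results of these data known. Of 90 listed genes 41 were measured, and 5 were higher in flight and 0 lower, which is 12.2% beside the 3.47% of all genes called higher and 1.51% called lower. The median difference of the 41 was 0.12, against -0.04 over all genes, and the 5 that passed rose by 0.99 to 2.52 log2 units. The count was 3 without flight replicate 3 and 3 without flight replicate 4.

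Of the lipid-transfer and proline-rich hybrid proteins, small cysteine-rich proteins of the cell surface, 10 were measured, 2 rose and 8 did not pass (median 0.14). AT2G18370 read 5.94, 5.31 and 5.87 in flight replicates 2, 3 and 4 and 3.83, 2.97 and 3.37 on the ground, a rise of 2.32 (SE 0.27, limma adjusted p 0.0069). AT1G62500 rose by 2.31 (SE 0.36, limma adjusted p 0.017), from ground readings of 1.11 to 1.69, but missed the threshold without flight replicate 3 (limma adjusted p 0.081) and without flight replicate 4 (0.051).

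Extensins and other hydroxyproline-rich or proline-rich proteins form the protein network of the wall. Their list had 17 measured genes, of which 0 passed in limma (median 0.02). The largest differences were 1.66 in AT2G43150 (limma adjusted p 0.069) and 1.23 in AT3G24480 (0.104). AT2G43150 passed when dim probe sets were left out (0.040), after spike-in centring (0.035) and with a trended and robust prior (0.029). It also passed with the replicate block (0.014) and without ground replicate 3 (0.042). The threshold was missed with quantile normalization (0.084), median centring (0.080) and array weights (0.084), and without any other single array (0.102 to 0.206). AT3G24480 passed only without ground replicate 3 (0.021), and its other alternatives gave 0.052 to 0.281. The mean of 12 of the 17 lay below the median of all readings.

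Of the DRT100-like and polygalacturonase inhibitor-like leucine-rich repeat proteins, 10 were measured besides DRT100 itself, and 1 rose (median 0.15). AT3G20820 read 4.38, 4.48 and 4.86 in flight replicates 2, 3 and 4 and 2.40, 3.13 and 2.71 on the ground. Its rise was 1.82 (SE 0.23, limma adjusted p 0.0082), and the groups did not overlap. The remaining 9 differed by -0.33 to 0.96, and 7 of the 10 had a mean below the median of all readings.

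The remaining lists were small. Of 2 measured genes on the list of E6-like proteins, AT1G03820 rose by 2.52 (SE 0.32, limma adjusted p 0.0090), from 1.51, 2.14 and 1.55 on ground replicates 2, 3 and 4 to 3.79, 4.05 and 4.93 in flight. AT2G33850 on the same list differed by 0.13. Of 2 measured genes on the list of A/B barrel proteins, AT2G31670 rose by 0.99 (SE 0.21, limma adjusted p 0.042). That call was lost with quantile normalization (limma adjusted p 0.052), median centring (0.057) and spike-in centring (0.066). It was also lost without any single array except ground replicate 2.

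**Figure D5:**
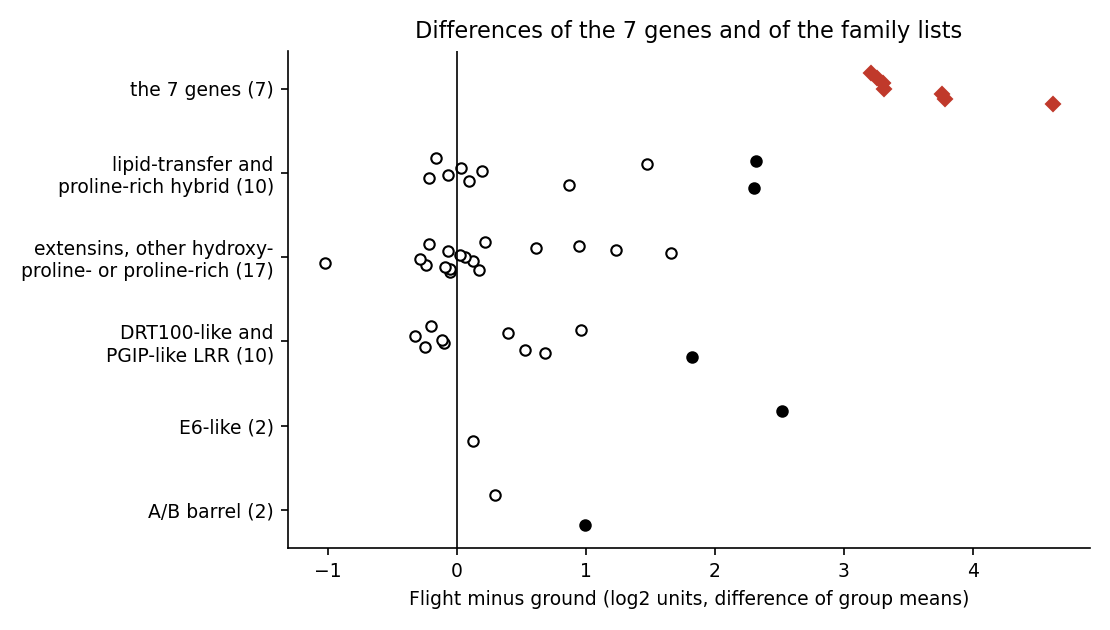
Difference of flight and ground means (horizontal axis, log2 units) for the 7 genes (red diamonds) and for 41 measured genes of the 5 family lists (circles, filled where limma's adjusted p was under 0.05), with the number of genes in brackets. Of the listed genes 5 are filled, all above 0.

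The genes beside the 7 on the chromosome were also read. Of the 28 protein-coding genes within 2 places of the 7 in the RefSeq order, a set chosen after the members' values were seen, 13 were measured, around 6 of the 7 genes. Their differences ran from -0.29 to 0.80 with a median of -0.01, against a median of -0.04 over all genes. Of these 13, 1 was called in limma, beside 3.47% of all genes called higher and 1.51% called lower, and the count was not read further. This was AT1G28390, 2 places from AT1G28400, at 0.78 (limma adjusted p 0.048). It missed the threshold under every alternative tried, at limma adjusted p from 0.052 to 0.169. DRT100's measured neighbours AT3G12620 and AT3G12590 differed by -0.01 and 0.12, and AT2G10950 beside AT2G10940 by -0.19.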

How the data were processed

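Shoot RNA was column-extracted, amplified with a whole-transcriptome kit and biotin-labelled, per the labels' protocols. The series' value table, with 22810 probe sets on 6 arrays, was taken as log2 values as deposited by the authors. Per the submitters' processing notes, tools used were MAS5, PLIER and RMA; which produced this table, and with what filters or detection calls, is not stated in the sources read. The log base was read from the range, 0.63 to 12.98. After 64 control probe sets were left out, 22746 were fitted with limma 3.58.1 in R 4.3.3 (lmFit, eBayes, two-sided, 3 arrays against 3, no covariate), with Benjamini-Hochberg adjustment over all probe sets. Platform annotation named a single gene for 13513 probe sets, more for 503 and no gene for 8730. RefSeq (TAIR10.1) entries were found through the gene identifier for 13436 of the first, through the locus tag for 48 and through the symbol for 24, while 5 kept their old symbol. The probe set with the highest mean stood for a gene, and no coordinates are given because the files name no genome build.

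The members, lists, tests and alternatives were chosen with earlier results of these data known. Genes named are the 7, the 3 on either side of DRT100 by rise, those of most alike pattern (5 for the mean, 1 for each member), and of each family list up to 3 called genes, or the 2 largest differences where none was called. AT2G33850, the neighbouring genes and the exactly recurring readings were chosen after values were seen. Alternatives were other centring and normalization, dim probe sets left out, a trended and robust prior, array weights, the replicate block, each array left out and the mean of a gene's probe sets. Plots were made in Python 3.11.15 (matplotlib 3.10.9). Precision is limited by the small number of arrays.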

Additional observations from a re-analysis of the deposited data

How the results depend on the processing

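The 7 differences ran from 2.75 to 5.003 log2 units over quantile normalization, median centring, spike-in centring and each array left out. Since the groups of each gene do not overlap, leaving out an array could not turn a sign, and with 1 probe set per gene the average over a gene's probe sets equals the value given, so neither bears on stability. Quantile normalization, median centring and spike-in centring gave medians of 3.29, 3.26 and 3.18. The median of the 7, 3.31 as deposited, ran from 3.28 to 3.74 with 1 array left out. With 1 array left out the lowest of the 7 fell to rank 12 to 20 among the 13355 genes. The count of probe sets called higher, 939, was 504 after spike-in centring and 188 to 1124 with 1 array left out (309, 188 and 312 without flight replicates 2, 3 and 4, and 1124, 621 and 526 without ground replicates 2, 3 and 4). The count called lower, 413, was 83 to 782 (142, 83 and 129, and 782, 414 and 270, in the same order). The count of family list genes called higher, 5, was 3 to 6. Whether the replicate numbers pair the samples was not settled. Deviations of same-numbered arrays correlated at 0.20, -0.03 and 0.27 over probe sets, and those of differently numbered arrays at -0.39 to 0.23. These ranges overlap, and the arrays are few. With the replicate block 733 probe sets were higher and 373 lower, and the median over same-numbered pairs gave 3.42 for the 7. Depth does not apply to arrays, and readings near the array medians limit ground values such as those of AT3G45160, which exceeded 28.2% to 58.1% of probe sets.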
